A study of Mus musculus with 10 samples.

Results

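The 9 genes described here belong to the machinery by which a mouse cell detects DNA in its cytosol. They were chosen by name: the sensors Cgas, Aim2, Ifi203, Ifi204 and Ifi205, the adaptor Sting1, the kinases Tbk1 and Ikbke, and the DNase Trex1. All 9 had a row among the 23086 genes of the deposited table. The material was 10 tumours of BBN963, a mouse urothelial carcinoma line named for a bladder carcinogen, grown in mice to 500 mm3, 5 of them with the genotype ATM-WT and 5 with ATM-KO. ATM is a protein kinase that signals DNA double-strand breaks. No label gives the host strain, age or sex, a treatment, the lesion made in Atm, the number of clones, or whether each tumour came from its own mouse. P-values therefore measure the spread between these libraries, which may be partly technical.

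Double-stranded DNA does not normally lie in the cytosol. When it does, the enzyme cGAS binds it and makes the cyclic dinucleotide cGAMP, which activates the adaptor STING on the endoplasmic reticulum. STING recruits TBK1 and the related kinase IKK-epsilon (the product of Ikbke), which activate IRF3 and with it type I interferon genes. TREX1 degrades cytosolic DNA and so restrains the pathway. AIM2 takes another route: it assembles an inflammasome with the adaptor ASC and caspase-1. The Ifi200 genes encode relatives of AIM2, are themselves induced by interferon, and are known mainly from myeloid and lymphoid cells. In a tumour, both the carcinoma cells and infiltrating leukocytes can express these genes.

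The table holds normalized counts, that is, read counts scaled by the authors to a common library size, and the library sums ran from 20.2 M to 22.3 M. Depth, estimated from steps between low values, was roughly 20.6 M to 28.3 M reads, except 8.82 M in ATM-WT library A2. Genes at 0 numbered 4824 in A2, 4266 in A4 and 2225 to 3602 elsewhere. Atm messenger RNA averaged 485 ± 183 (SD, n = 5) in ATM-WT and 455 ± 139 (SD, n = 5) in ATM-KO, with overlapping values, so its level does not check the genotype labels. Markers of the labelled tissue differed between groups: 13 urothelial and epithelial genes summed to 89358.5 to 243655 in ATM-WT and to 2220.5 to 3850.4 in ATM-KO. The uroplakin gene Upk3a, which marks differentiated urothelium, was listed at 0 in all 5 ATM-KO libraries, and the basal keratin gene Krt5 in 3 of them.

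Each difference is ATM-KO minus ATM-WT in log2(normalized count + 1), the log2 fold change, ± SE from limma, with Benjamini-Hochberg adjustment over 16517 tested genes and a threshold of 0.05. All 9 genes passed the low-value filter, a mean of 10 over the 10 libraries. Of the 9, 4 rose (Aim2, Ifi205, Cgas and Ifi204), 1 fell (Ikbke) and 4 did not pass (Trex1, Ifi203, Tbk1 and Sting1). Over all tested genes 22.1% rose and 24.3% fell, 46.4% together, so a call alone was common in these tumours. The median log2 fold change was 0.40 over the 9 genes and 0.0047 over all tested genes. The rise of Aim2 was larger than the log2 fold change of 97.9% of tested genes, and that of Ifi205 larger than 96.8%. In 4 genes the groups did not overlap, 3 of them higher in ATM-KO (17.0% of tested genes) and 1 lower (18.2%).

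**Figure D1:**
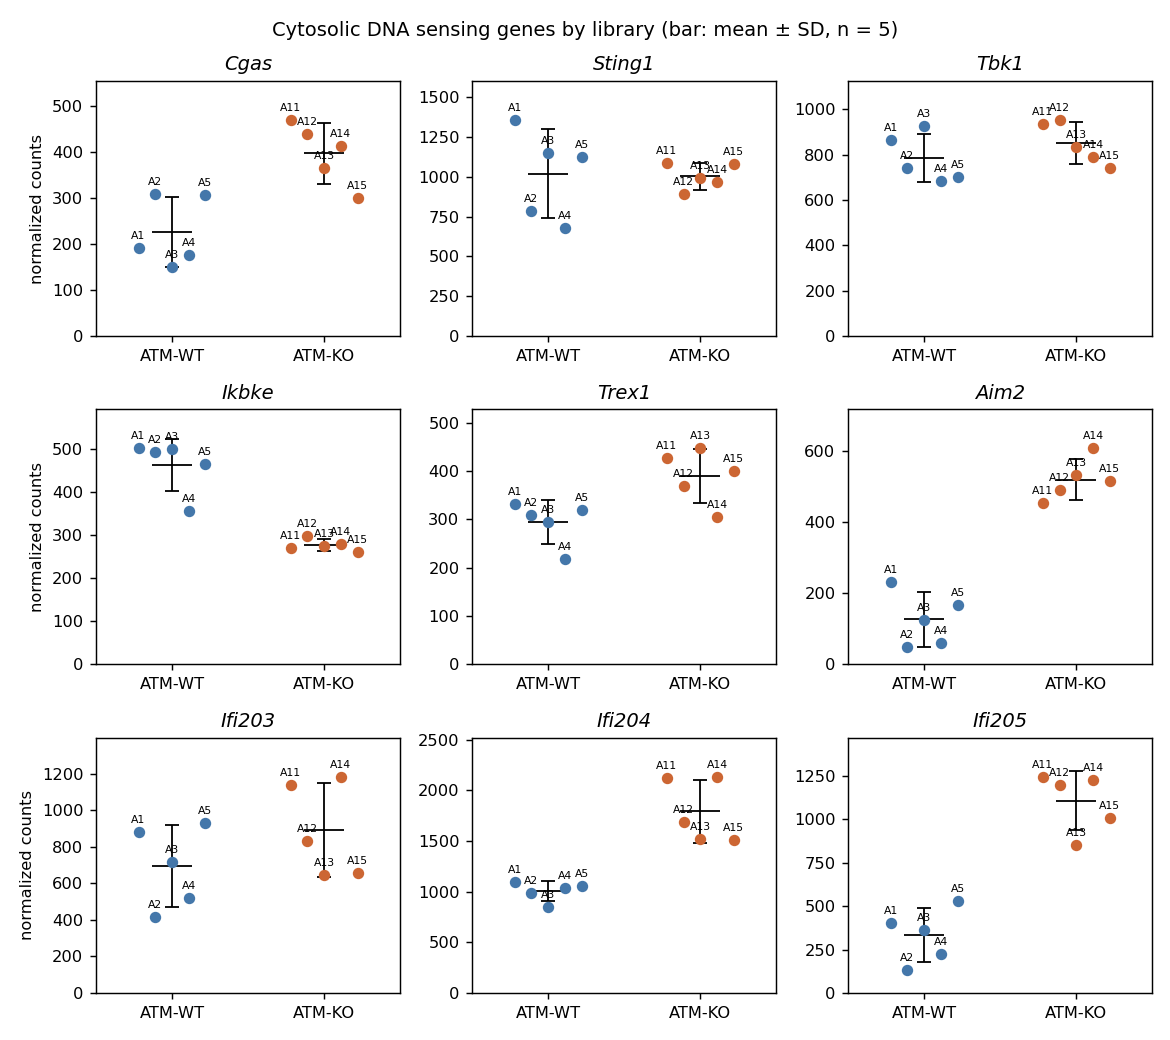
Normalized counts of the 9 genes, one panel each on a linear axis from 0, with a point for every library and a bar for the mean ± SD of 5 libraries. Aim2, Ifi204 and Ifi205 lie higher in every ATM-KO library than in any ATM-WT library, Ikbke lies lower, and the groups overlap for the other 5 genes.

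The promoter sequences of 5 of the genes are shown because these are genes of one pathway that went in different directions. Each is the RefSeq sequence (build GRCm38.p6) of the 250 bases before an annotated start, 5′ to 3′ on the gene's strand. Capitals mark matches to GAAANNGAAA, the core of the interferon-stimulated response element, where N is any base, on either strand.
Aim2, chr1:173420354-173420603, plus strand: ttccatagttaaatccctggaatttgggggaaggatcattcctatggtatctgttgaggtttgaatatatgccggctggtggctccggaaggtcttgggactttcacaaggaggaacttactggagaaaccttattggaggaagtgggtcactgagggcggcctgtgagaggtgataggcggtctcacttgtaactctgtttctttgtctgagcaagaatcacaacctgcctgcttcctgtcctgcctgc
Ifi205, chr1:174031756-174032005, minus strand: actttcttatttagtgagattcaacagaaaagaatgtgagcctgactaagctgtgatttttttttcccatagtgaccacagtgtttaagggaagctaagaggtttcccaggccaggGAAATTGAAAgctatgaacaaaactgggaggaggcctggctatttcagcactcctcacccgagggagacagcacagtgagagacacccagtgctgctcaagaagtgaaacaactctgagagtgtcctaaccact
Ifi203, chr1:173942493-173942742, minus strand: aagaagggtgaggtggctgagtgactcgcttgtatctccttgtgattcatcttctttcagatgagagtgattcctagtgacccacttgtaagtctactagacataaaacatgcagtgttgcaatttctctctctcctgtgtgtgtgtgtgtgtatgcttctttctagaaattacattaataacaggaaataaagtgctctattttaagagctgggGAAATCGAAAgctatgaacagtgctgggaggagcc
Cgas, chr9:78443238-78443487, minus strand: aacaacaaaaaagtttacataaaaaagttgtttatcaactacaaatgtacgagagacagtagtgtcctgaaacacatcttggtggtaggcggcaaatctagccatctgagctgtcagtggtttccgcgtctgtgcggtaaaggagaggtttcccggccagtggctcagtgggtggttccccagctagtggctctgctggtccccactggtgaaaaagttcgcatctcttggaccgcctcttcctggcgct
Ikbke, chr1:131279564-131279813, minus strand: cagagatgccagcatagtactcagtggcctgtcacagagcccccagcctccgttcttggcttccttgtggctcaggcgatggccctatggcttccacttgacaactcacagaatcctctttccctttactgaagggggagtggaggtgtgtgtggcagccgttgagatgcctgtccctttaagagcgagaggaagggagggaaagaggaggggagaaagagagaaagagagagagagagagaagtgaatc
Such a match was found at 134 bases before the start of Ifi205 and at 35 bases before one of the 2 annotated starts of Ifi203, and in 2.98% of all 32851 promoter windows of this length. The windows of Ifi203 and Ifi205 shared an identical run of 14 bases, the longest between windows of different genes. No match stood in the windows of Aim2, Cgas or Ikbke. Neither TTCNNNGAA (a gamma-activated sequence, in 7.02% of windows) nor GGGNNTTTCC (an NF-kB motif, in 1.41%) was found in the 9 windows examined, which belong to 7 of the 9 genes. No window of Sting1 or Ifi204 was examined. These are letter matches only. Ifi205 rose and Ifi203 did not pass the test. The response element core stood in the Ifi205 window and in 1 of the 2 Ifi203 windows, and its part in these values was not tested.

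Cgas, the sensor that makes cGAMP, was higher in ATM-KO tumours by 1.81-fold (95% interval 1.29 to 2.54). Normalized counts were 191, 309, 151, 175 and 306 in ATM-WT (A1 to A5, the order used throughout) and 469, 438, 365, 412 and 301 in ATM-KO (A11 to A15). Among ATM-KO libraries 4 of 5 lay above every ATM-WT library, and A15 lay just below the 2 highest ATM-WT libraries, A2 and A5. The log2 fold change was 0.85 ± 0.23 (limma adjusted p = 0.0079). An exact permutation test, two-sided, gave an unadjusted p of 0.024 over the 252 splits of 5 against 5.

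Sting1, the adaptor downstream of cGAS, had nearly equal group means, 1019.9 ± 279 (SD, n = 5) in ATM-WT and 1002 ± 82.4 (SD, n = 5) in ATM-KO. Values in ATM-WT were 1357, 787, 1149, 679 and 1127 normalized counts, and ATM-KO had 1085, 889, 991, 966 and 1080.4. Every ATM-KO value lay inside the ATM-WT range, whose 2 lowest libraries were A2 and A4. The log2 fold change was 0.02 ± 0.17 with a 95% interval from -0.36 to 0.39 (limma adjusted p = 0.95), so a change within that interval is not excluded. Without A2 and A4 the log2 fold change was -0.27 ± 0.11 (limma adjusted p = 0.059). The balance of the pair within a library shifted toward Cgas. The log2 ratio of Cgas to Sting1 averaged -2.18 ± 0.67 (SD, n = 5) in ATM-WT and -1.35 ± 0.31 (SD, n = 5) in ATM-KO. The difference of 0.84 had an exact two-sided permutation p of 0.032, and 0.048 after adjustment over the 6 ratios tested, and 3 of 5 ATM-KO libraries lay above all ATM-WT libraries. Leaving out 1 library raised the unadjusted permutation p from 0.032 to 0.063 in 5 of 10 cases (A1, A3, A11, A12 and A14). The p-values with libraries left out were not adjusted over the 6 ratios.

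The kinases that act on IRF3 parted from each other. Ikbke, whose product is the inducible kinase IKK-epsilon, held 501, 491, 499, 356 and 464 normalized counts in ATM-WT and 270.0, 297, 275, 279 and 259.7 in ATM-KO. All ATM-KO libraries lay below all ATM-WT libraries, and their spread was small, with an SD of 4.98% of the mean against 13.2% in ATM-WT. Ikbke fell by 0.73 ± 0.13 on the log2 scale (limma adjusted p = 7.19e-04), and exact permutation gave p = 0.0079, the smallest that 252 splits allow.

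Tbk1, the constitutive kinase of the pair, held 866, 743, 925, 685 and 699 normalized counts in ATM-WT and 935, 953, 834, 789.7 and 743 in ATM-KO. The groups overlapped along most of their range. Its log2 fold change was 0.12 ± 0.12 with a 95% interval from -0.14 to 0.38 (limma adjusted p = 0.43). The log2 ratio of Ikbke to Tbk1 averaged -0.76 ± 0.16 (SD, n = 5) in ATM-WT and -1.61 ± 0.12 (SD, n = 5) in ATM-KO, without overlap. That difference of -0.85 had an exact permutation p of 0.0079, or 0.024 adjusted over the 6 ratios, and stayed between -0.90 and -0.81 when any 1 library was left out.

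Trex1, the DNase that clears cytosolic DNA, held 332, 309, 295, 217 and 320.2 normalized counts in ATM-WT and 427, 369, 447, 304 and 400.4 in ATM-KO. In ATM-KO 4 of 5 libraries lay above every ATM-WT library, while A14 lay among them. The log2 fold change of 0.40 ± 0.16 did not pass (limma adjusted p = 0.057), although its 95% interval before adjustment ran from 0.05 to 0.76 and the unadjusted exact permutation p was 0.032. It passed after quantile normalization (0.61, limma adjusted p = 0.0094), which moved the median of all genes to 0.15, and without A1 (limma adjusted p = 0.049) or A14 (limma adjusted p = 0.033).

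The level of Trex1 is uncertain in another way. In GENCODE M21, 97.6% of the 31-base words in Trex1 transcripts also occur in transcripts annotated to Atrip, a neighbouring gene for the partner of the kinase ATR, so reads of the pair can be assigned to either. Atrip rose from 235 ± 61.6 to 455 ± 50.3 normalized counts (SD, n = 5 per group; log2 fold change 0.98 ± 0.17, limma adjusted p = 5.98e-04). How reads were divided between the genes cannot be read from the table. Relative to Cgas, Trex1 had a log2 ratio of 0.43 ± 0.43 (SD, n = 5) in ATM-WT and -0.02 ± 0.36 (SD, n = 5) in ATM-KO, a difference of -0.45 that did not pass (exact permutation p = 0.11, 0.13 adjusted over the 6 ratios).

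Aim2, the inflammasome sensor, showed the largest change of the 9 genes. Normalized counts were 233, 48.5, 124, 60.1 and 168 in ATM-WT. ATM-KO libraries had 453, 490.0, 532, 607 and 517. Every ATM-KO library held more than the highest ATM-WT library. ATM-WT values spread widely, with an SD of 60.5% of the mean and the lowest values in A2 and A4, while ATM-KO values had an SD of 11.1%. The log2 fold change was 2.26 ± 0.37 (limma adjusted p = 3.07e-04; exact permutation p = 0.0079), or 4.79-fold with a 95% interval from 2.75 to 8.36. It was smaller without A2 and A4, 1.61 ± 0.20 (limma adjusted p = 7.80e-05).

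Aim2 also rose relative to Cgas when all libraries were used. The log2 ratio of Aim2 to Cgas averaged -1.01 ± 1.14 (SD, n = 5) in ATM-WT and 0.40 ± 0.34 (SD, n = 5) in ATM-KO, a difference of 1.41 (exact permutation p = 0.024, 0.048 adjusted over the 6 ratios), and the groups overlapped. Without A2 and A4, which held the lowest Aim2 values, the difference was 0.69 with an unadjusted exact permutation p of 0.071. Leaving out A13, A14 or A15 also raised the unadjusted p to 0.056.

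Ifi205 showed the second largest change. It held 404, 134, 364, 224 and 532 normalized counts in ATM-WT and 1245, 1199, 855, 1226 and 1009 in ATM-KO. The groups did not overlap, and A2 and A4 again held the lowest ATM-WT values. Its log2 fold change was 1.88 ± 0.31 (limma adjusted p = 3.10e-04), or 3.67-fold with a 95% interval from 2.31 to 5.83, and 1.36 ± 0.16 without A2 and A4 (limma adjusted p = 6.69e-05).

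Ifi204, listed by RefSeq with the synonym Ifi16 (in human cells IFI16 is a sensor that works with STING), also rose, by a smaller factor. It held 1094, 982, 849, 1039.9 and 1057 normalized counts in ATM-WT and 2121, 1686, 1517, 2133 and 1506 in ATM-KO. The groups did not overlap, and A2 and A4 lay within the other ATM-WT libraries. The log2 fold change was 0.82 ± 0.13 (limma adjusted p = 1.95e-04), or 1.77-fold, and 0.83 ± 0.15 without A2 and A4 (limma adjusted p = 9.01e-04). Ifi205 rose more than Ifi204: the log2 ratio of Ifi205 to Ifi204 went from -1.74 ± 0.78 (SD, n = 5) to -0.69 ± 0.15 (SD, n = 5) without overlap. The difference was 1.05 (exact permutation p = 0.0079, 0.024 adjusted over the 6 ratios), and 0.52 without A2 and A4 (exact permutation p = 0.018, unadjusted).

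Ifi203 did not pass. It held 881, 414, 717, 520.0 and 933 normalized counts in ATM-WT and 1137, 834, 648, 1184 and 656 in ATM-KO. The groups overlapped widely, and A13 and A15 lay below 3 of the 5 ATM-WT libraries. The log2 fold change was 0.38 ± 0.25 with a 95% interval from -0.16 to 0.92 (limma adjusted p = 0.23), and 0.04 ± 0.21 without A2 and A4 (limma adjusted p = 0.89). The log2 ratio of Ifi204 to Ifi203 differed by 0.44 between groups, which did not pass (exact permutation p = 0.13, 0.13 adjusted over the 6 ratios), and by 0.79 without A2 and A4 (exact permutation p = 0.018, unadjusted).

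**Figure D2:**
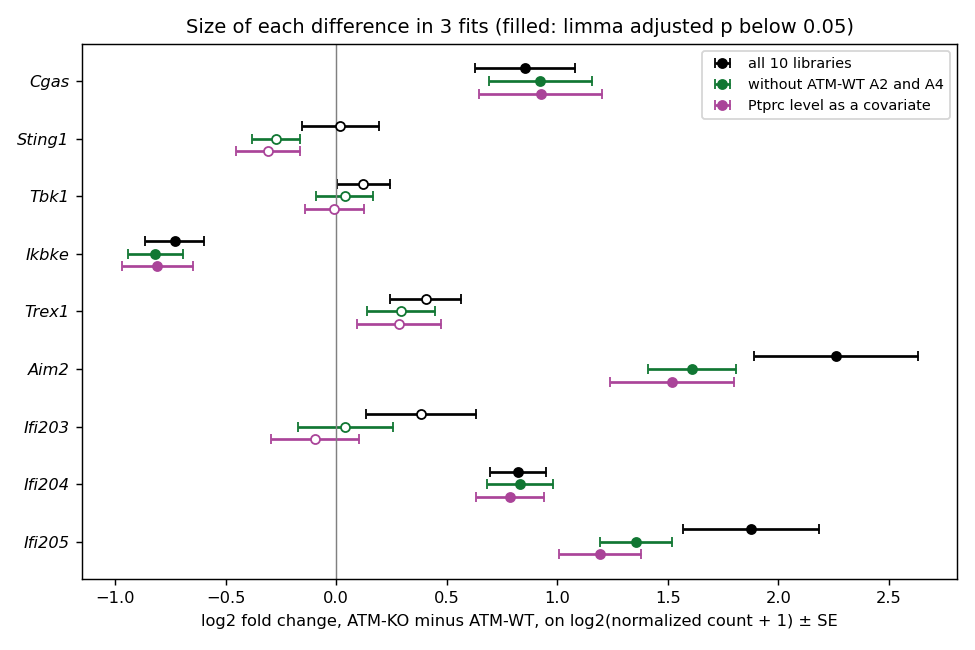
Log2 fold change, ATM-KO minus ATM-WT, ± SE for each of the 9 genes in 3 limma fits: all 10 libraries, without ATM-WT libraries A2 and A4, and with the Ptprc level as a covariate. Filled points have an adjusted p below 0.05. Aim2 goes from 2.26 to 1.61 and 1.52 and Ifi205 from 1.88 to 1.36 and 1.19, while Cgas, Ifi204 and Ikbke move little. Ifi203 goes from 0.38 to 0.04 and -0.10 and Sting1 from 0.02 to -0.27 and -0.31, unfilled in each fit. Trex1 goes from 0.40 to 0.29 and 0.28 and Tbk1 from 0.12 to 0.04 and -0.01, also unfilled.

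Aim2 and the Ifi200 genes lie along one stretch of mouse chromosome 1, and 13 of them had a row in the table. Of the 12 tested, 8 rose, 1 fell and 3 did not pass, where 22.1% of all tested genes rose and 24.3% fell. In the order of the chromosome, those that rose were Aim2, Ifi206, Ifi213, Ifi209, Ifi207, Ifi204, Ifi211 and Ifi205. Without A2 and A4 the count was 6 higher and 1 lower, Ifi209 (0.38, limma adjusted p = 0.073) and Ifi207 (0.36, limma adjusted p = 0.091) no longer passing. Ifi211 rose without overlap, from 846 ± 253 to 1890.0 ± 257 normalized counts (SD, n = 5 per group; log2 fold change 1.20 ± 0.19, limma adjusted p = 2.82e-04).

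Ifi202b, which lies between Ifi203 and Ifi205, went the opposite way. Its protein lacks the pyrin domain of its relatives and is known in mice as an inhibitor of AIM2. Ifi202b stood at 263, 602, 225, 569.8 and 374.5 normalized counts in ATM-WT and 149, 189, 107, 164 and 118 in ATM-KO. The groups did not overlap, and A2 and A4, where Aim2 was lowest, held the most Ifi202b. A link between the levels of Ifi202b and Aim2 was not tested. It fell by 1.40 ± 0.29 on the log2 scale (limma adjusted p = 0.0016). The genes Mndal (log2 fold change -0.16 ± 0.11, limma adjusted p = 0.27) and Ifi208 (1.22 ± 0.50 from low levels, limma adjusted p = 0.062) did not pass, though Ifi208 did after quantile normalization (limma adjusted p = 0.011). Members of this family share sequence: 34.0% of the 31-base words of Ifi204 transcripts in GENCODE M21 occur in another gene, 22.1% for Ifi205 and 21.6% for Ifi203, against 4.89% for Aim2 and 2.14% for Cgas. Reads from such words could have been split between the relatives.

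**Figure D3:**
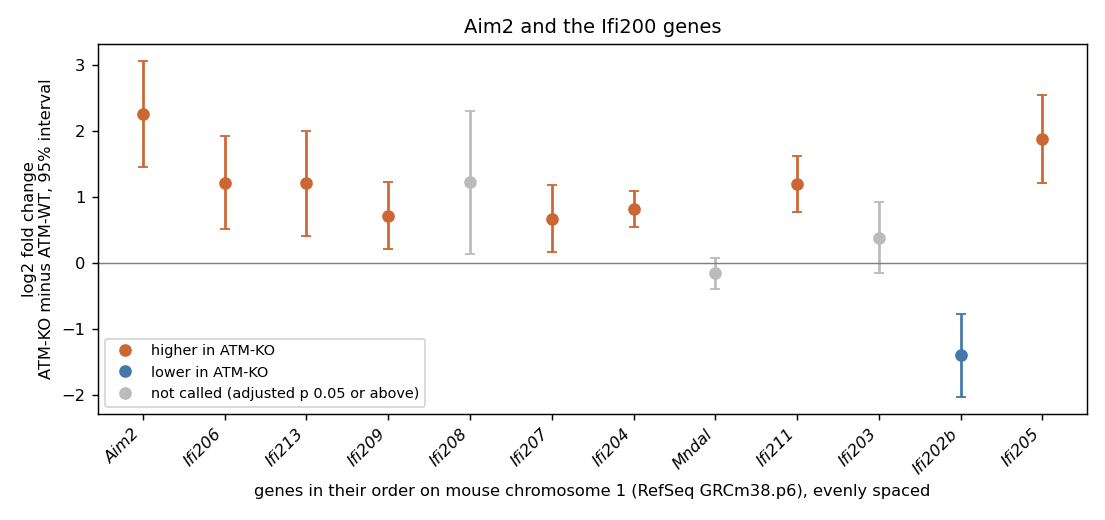
Log2 fold change with its 95% interval (limma) for Aim2 and 11 tested Ifi200 genes, evenly spaced in their order along mouse chromosome 1. Aim2 and Ifi205, at the ends, are the highest, and Ifi202b, next to Ifi205, is the only one of the 12 with an interval wholly below 0.

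Marker sums of leukocytes differed between the groups for some cell types and overlapped for others. Marker counts in this and the next paragraph are to be read beside 22.1% of all tested genes higher and 24.3% lower. Without A2 and A4 these shares were 23.1% and 24.9%. Of single tested genes, 35.2% did not overlap between groups, and such a share was not obtained for sums. The pan-leukocyte markers (5 of 5 genes in the table, none at 0 in any library) summed to 4765 to 9363 normalized counts in ATM-WT and to 9717 to 11408 in ATM-KO, without overlap, and 3 of 5 rose. Among ATM-WT libraries A2 and A4 held the least, 4765 and 4774, against 8067 to 9363 in the other 3. Macrophage markers (12 of 12 genes, none at 0) overlapped between groups, at 25549.7 to 71512 and 44373 to 64949.5. Their sums were lowest in A2 and A4, at 25549.7 and 35276, and 2 of 12 genes rose while 1 fell. Without A2 and A4, none of the 12 rose and 1 fell, and 2 of the 5 pan-leukocyte genes rose. Dendritic cell markers (9 of 9 genes) summed to 959 to 1485 in ATM-WT and 3397 to 4144 in ATM-KO. Xcr1, Clec9a, Cd209a and Siglech were at 0 in some library, and 5 of the 9 genes rose. Most of that sum was Itgax (means 857 and 2657). Flt3, Xcr1, Clec9a and Batf3 also rose. Zbtb46, Ccr7, Cd209a and Siglech did not pass, and Cd209a (15.2 and 7.47) and Siglech (17.6 and 5.97) had lower means in ATM-KO.

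Aim2, Ifi205, Ifi203 and Sting1, the genes lowest in A2 and A4, had their low values where leukocyte markers were low and urothelial and epithelial markers highest (243655 and 193084, against 89358.5 to 146016 in the other 3). Cgas, Ifi204, Tbk1, Ikbke and Trex1 did not have both libraries lowest. The part of cell content in these values was not tested. NK cell markers (7 of 7 genes, with Ncr1, Prf1 and Eomes at 0 in some library) summed to 159 to 787 and 835 to 2230.3, without overlap, but only 2 of 6 tested genes rose. These were the granzyme genes Gzma, whose mean went from 139 to 713, and Gzmb, while Klrb1c, Klrk1, Prf1 and Eomes did not pass and Ncr1 was too low to test. B cell markers (6 of 6 genes, 5 of them at 0 in some library) summed to 47.8 to 145 and 436 to 620.0, without overlap, and 2 of 3 tested genes rose. That sum rests on Blk (means 13.3 and 238) and Cd79a (20.8 and 234), while Cd79b had means of 34.7 and 17.7 and did not pass, and Ms4a1 and Pax5 were too low to test. T cell markers (9 of 9 genes, none at 0) overlapped at 338 to 1137 and 631 to 2025. Of the 9, 1 rose, and none did without A2 and A4. Neutrophil markers (5 of 6 genes, none at 0) were lower in ATM-KO at 577 to 1704 against 1987 to 3611 (4 of 5 fell), and so were fibroblast markers (8 of 8, none at 0) at 35728 to 106387 against 157727 to 574957 (7 of 8 fell). Endothelial markers (5 of 5, none at 0) overlapped at 1645 to 3450.3 in ATM-WT and 1332 to 2708 in ATM-KO.

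With the level of the pan-leukocyte gene Ptprc as a covariate, the log2 fold changes were 1.52 ± 0.28 for Aim2 (limma adjusted p = 9.18e-04), 1.19 ± 0.18 for Ifi205 (limma adjusted p = 2.54e-04), 0.79 ± 0.15 for Ifi204 (limma adjusted p = 0.0013) and 0.92 ± 0.28 for Cgas (limma adjusted p = 0.017). Ikbke was at -0.81 ± 0.16 (limma adjusted p = 0.0014) and Sting1 at -0.31 ± 0.14 (limma adjusted p = 0.10). Ifi203 was at -0.10 ± 0.20 (limma adjusted p = 0.73), Trex1 at 0.28 ± 0.19 (limma adjusted p = 0.25) and Tbk1 at -0.01 ± 0.13 (limma adjusted p = 0.96). The same 4 genes rose and the same 1 fell in this fit and in the fit without A2 and A4. Over all genes 20.8% rose and 22.4% fell (43.2% together) with the covariate, and 23.1% and 24.9% (48.0% together) without A2 and A4. The summed dendritic, NK and B cell markers separated the genotypes. So did the pan-leukocyte, neutrophil, fibroblast, and urothelial and epithelial sums. The part of these cell types therefore cannot be told apart from genotype here. In bulk tumours a lower share of a cell type and less RNA per cell give the same reading.

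**Figure D4:**
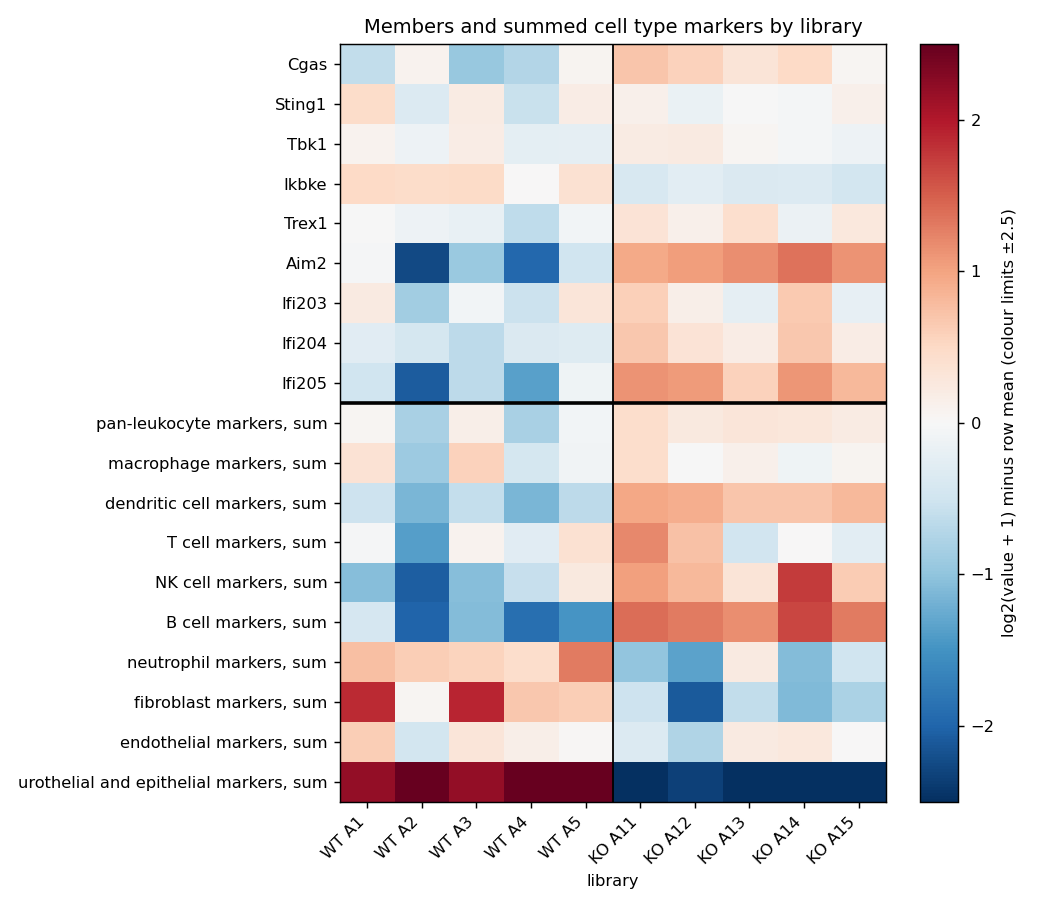
Log2(value + 1) minus the row mean for the 9 genes (above the line) and for the summed markers of 10 cell types (below it), by library, with colours limited to ±2.5. In ATM-WT libraries A2 and A4, Aim2 and Ifi205 are low together with pan-leukocyte, macrophage and dendritic cell markers, while urothelial and epithelial markers are highest.

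The other genes of these pathways were read from 8 lists, in which 32 of 115 tested genes rose and 15 fell, beside 22.1% and 24.3% of all tested genes. Without A2 and A4, 30 rose and 23 fell, beside 23.1% and 24.9%. Counts for single lists are small and are to be read against these shares. The inflammasome list holds AIM2's adaptor, protease and substrates as well as sensors of other inflammasomes (Nlrp3, Nlrp1b, Naip5 and Nlrc4) and Casp4. None of its 10 tested genes rose and 3 fell, a share near that of all genes, with a median log2 fold change of -0.44. Casp1, the protease of the inflammasome, held 513, 509, 603, 645 and 770.1 normalized counts in ATM-WT and 389.8, 344, 211, 322 and 193 in ATM-KO. Its groups did not overlap (log2 fold change -1.09 ± 0.21, limma adjusted p = 0.0010). Pycard, which encodes the adaptor ASC, fell from 527 ± 230.4 to 237 ± 43.2 (-1.06 ± 0.26, limma adjusted p = 0.0047), and Il18, a cytokine matured by the inflammasome, from 624 ± 75.0 to 414 ± 29.4 (-0.58 ± 0.12, limma adjusted p = 0.0015; SD, n = 5 per group). The sensor gene Aim2 thus rose while these 3 genes fell. Naip5, a sensor of another inflammasome, did not pass (0.37, limma adjusted p = 0.11), though it did after quantile normalization (limma adjusted p = 0.0047). Without A2 and A4, 6 of the 10 fell. Casp1, Pycard and Il18 are also expressed by epithelia, whose markers were low in ATM-KO, and the part of that in these falls was not tested.

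Among transcription factors and TBK1 adaptors 3 of 12 genes rose and 1 fell (median 0.11, and 0.06 with 2 higher and 2 lower when A2 and A4 were left out). Irf3, the factor that TBK1 activates, held 949 ± 130.4 and 909 ± 90.8 normalized counts (log2 fold change -0.06 ± 0.12, limma adjusted p = 0.72). Its interferon-induced relative Irf7 rose from 755 ± 311 to 1329.6 ± 276 (0.89 ± 0.25, limma adjusted p = 0.011) and Irf5 from 578 ± 132 to 947 ± 70.7 (0.74 ± 0.16, limma adjusted p = 0.0021). Traf3, an adaptor for TBK1 activation, rose by 0.42 ± 0.12 (limma adjusted p = 0.014) and did not pass without A2 and A4 (0.31, limma adjusted p = 0.065). Tank, which binds TBK1 and IKK-epsilon, fell from 849 ± 130.1 to 609 ± 40.5 (-0.47 ± 0.12, limma adjusted p = 0.0070). The factor genes that rose were thus Irf5 and Irf7, and not Irf3.

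Of 24 genes for STING trafficking and turnover, 6 rose and 4 fell (median -0.05), beside 22.1% and 24.3% of all tested genes. Without A2 and A4, 6 rose and 6 fell (median -0.04). Steep1, which helps STING leave the endoplasmic reticulum, rose from 951 ± 79.8 to 1559 ± 94.3 normalized counts (0.71 ± 0.09, limma adjusted p = 5.21e-05). Nlrx1, known as a negative regulator that holds STING away from TBK1, fell from 488 ± 78.4 to 143 ± 25.7 (-1.77 ± 0.18, limma adjusted p = 6.57e-06), and the autophagy kinase gene Ulk1 by 1.16 ± 0.14 (limma adjusted p = 2.78e-05). Nlrx1 and Ulk1 also act outside this pathway.

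Among genes for transport and hydrolysis of cyclic dinucleotides none of 10 rose and 3 fell (median -0.08, and -0.25 when A2 and A4 were left out). Enpp1, the main extracellular hydrolase of cGAMP, averaged 1640.5 ± 540.4 and 1638 ± 163 normalized counts (log2 fold change 0.05 ± 0.18, limma adjusted p = 0.85), a sign that turned to -0.00033 after quantile normalization. Those that fell were Slc46a1 (-1.52 ± 0.19, limma adjusted p = 4.79e-05), a folate carrier, Enpp3 (-1.40 ± 0.30, limma adjusted p = 0.0022), a relative of Enpp1, and the volume-regulated channel gene Lrrc8e (-0.79 ± 0.18, limma adjusted p = 0.0035). Lrrc8e did not pass after quantile normalization (limma adjusted p = 0.057). Without A2 and A4, 1 gene of this list rose and 5 fell, the riser being the exporter gene Abcc1 (0.26, limma adjusted p = 0.043; 0.25 ± 0.10 and limma adjusted p = 0.052 with all libraries).

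Of 15 genes for nucleases and nucleotide clearance beside Trex1, 6 rose and 2 fell (median 0.44). When A2 and A4 were left out 7 rose and 3 fell, and the median was 0.14. Dnase1l3, a secreted DNase of dendritic cells and macrophages, rose from 131 ± 63.6 to 514 ± 162 normalized counts (2.04 ± 0.30, limma adjusted p = 1.24e-04). Rnaseh2c, a subunit of the ribonuclease whose loss activates cGAS, rose by 1.07 ± 0.11 (limma adjusted p = 9.49e-06). Banf1, a chromatin protein that shields DNA from cGAS, rose by 1.02 ± 0.12 (limma adjusted p = 3.11e-05) and the replication nuclease gene Fen1 by 1.21 ± 0.14 (limma adjusted p = 2.39e-05). Samhd1, which hydrolyses deoxynucleotides, did not pass (0.24 ± 0.15, limma adjusted p = 0.215). The 2 that fell were Dnase2a and Trex2. Dnase2a went from a mean of 1332 in ATM-WT to 708 in ATM-KO without overlap (-0.89 ± 0.16, limma adjusted p = 5.14e-04). Trex2 had low means, 35.8 in ATM-WT and 0.18 in ATM-KO (-4.28 ± 0.81, limma adjusted p = 8.67e-04). Of 18 other DNA sensors 7 rose and 1 fell (median 0.20), and 8 rose and none fell with a median of 0.33 when A2 and A4 were left out. The interferon-induced sensor gene Zbp1 held 903 ± 366 and 2018 ± 705 without overlap (1.19 ± 0.28, limma adjusted p = 0.0043), and the RNA polymerase III subunit genes Polr3a, Polr3c and Polr3d rose by 0.56 to 0.74 on the log2 scale. Polr3b (0.19), Polr3e (-0.31) and Polr3f (0.21), of the same complex, did not pass. Xrcc6, a Ku subunit, rose by 0.95 ± 0.11 (limma adjusted p = 2.63e-05), whereas the other Ku gene Xrcc5 did not pass (-0.21, limma adjusted p = 0.23). Prkdc, the gene for the kinase that Ku recruits, was the 1 that fell (-0.40, limma adjusted p = 0.042), and it did not pass without A2 and A4 (limma adjusted p = 0.15).

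At the output of the pathway, 5 of 18 tested cytokine and interferon-induced genes rose and none fell (median 0.50), a share of risers near that of all genes. Isg15, a ubiquitin-like protein gene, held 672, 566, 431, 402 and 1234 normalized counts in ATM-WT and 1477, 1839, 1868, 2321 and 1711 in ATM-KO. Its groups did not overlap (log2 fold change 1.59 ± 0.26, limma adjusted p = 2.95e-04). Rsad2, which encodes the antiviral protein viperin, rose by 1.35 ± 0.35 (limma adjusted p = 0.0070) and Ifit2 by 0.89 ± 0.19 (limma adjusted p = 0.0018). The chemokine gene Cxcl10 (0.78 ± 0.29, limma adjusted p = 0.044) and the interferon receptor gene Ifnar2 (0.50 ± 0.17, limma adjusted p = 0.030) passed with all libraries but not without A2 and A4 (limma adjusted p = 0.23 and 0.12). With those libraries left out 3 of the 18 rose and the median was 0.19. The beta interferon gene Ifnb1 is not analysed here.

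**Figure D5:**
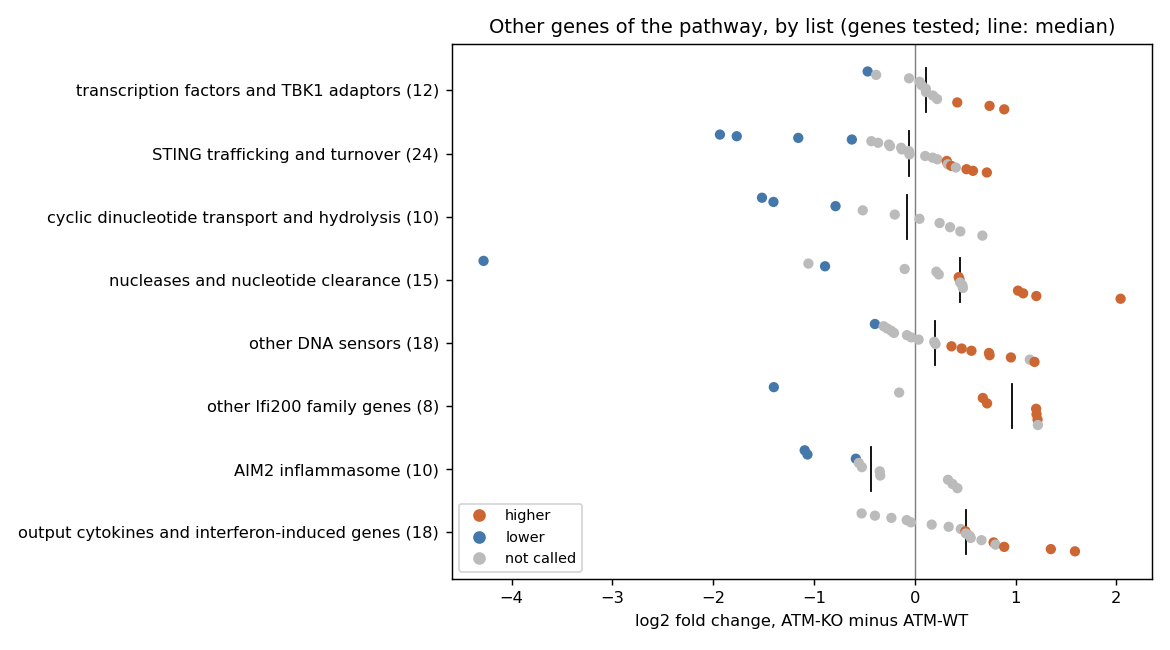
Log2 fold change, ATM-KO minus ATM-WT, of every tested gene of 8 pathway lists, one point a gene, coloured by its call, with a line at the list's median. The median is -0.44 for the inflammasome list and 0.96 for the other Ifi200 genes (0.58 when A2 and A4 were left out).

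The pattern over the 10 libraries was compared between each of the 9 genes and 13339 genes with a mean of at least 50, by the root mean square difference of log2 values after each gene's own mean was removed. The nearest to Cgas were Cenpm (0.16), a centromere protein gene, and Ccnb1 (0.18), a mitotic cyclin gene, where the median over all ranked genes was 0.64. Nearest to Aim2 were Tnfrsf9 (0.20), a costimulatory receptor gene of lymphocytes, and F10 (0.22), a coagulation factor gene, with a median of 1.31. Ifi205 was nearest to Gm42047 (0.22) and Adgrg5 (0.22), and Ifi204 to Arhgef3 (0.096) and Eaf1 (0.10).

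Ikbke was nearest to Dhx57 (0.12) and Cd99l2 (0.12), Ifi203 to the interferon-induced gene Trim30a (0.16) and to Gimap1 (0.17), Sting1 to Ggta1 (0.085) and Rhog (0.11), Tbk1 to Itprid2 (0.070) and Tmem185a (0.083), and Trex1 to Lacc1 (0.085) and Aph1a (0.13). Flat genes have small distances to many others, so these values are read against each gene's own median, which ran from 0.41 for Tbk1 to 1.31 for Aim2.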

How the data were processed

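RNA of 10 tumours was extracted and made into libraries by a sequencing company, per the labels' protocols. What the authors deposited is a normalized count per gene and library, used here as a signal with no value below 0. STAR, Salmon and DESeq2 are named, without versions or roles, per the submitters' processing notes. Genome build and annotation: not given in the sources used here. Column headers hold a genotype and a library number; since the number is in no label, columns were placed in groups only.

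The value of 1 read was sought among low values. Between 59.2% and 69.6% of those up to 20 reads came within 0.05 of a multiple. Whole reads were therefore not recovered, no count test was run, and depths are rough.

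The test, limma 3.58.1 (trend) in R 4.3.3, took log2(value + 1) of genes with a mean of at least 10, after the procedure was tested on simulated data. The simulation gave both groups the spread of the ATM-KO libraries, so it does not cover groups of unequal spread. A fold change on this scale understates the change of low genes. Permutation tests are exact and two-sided. Python 3.11.15, numpy 2.4.6, pandas 2.3.3 and matplotlib 3.10.9 were used. Symbols altered on export were restored. Promoters come from RefSeq (GRCm38.p6). The genes, lists, ratios and alternatives were chosen with earlier results of these data known. Named genes are the 9, the 4 of smallest p per list with a few defining components, and the 2 nearest in pattern; further Ifi200, marker and list genes, Atrip and motifs were chosen after values were seen. One gene that the naming rule selects is not reported here.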

Additional observations from a re-analysis of the deposited data

Results flagged for a closer look

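One value stood apart within its group. Ikbke in ATM-WT library A4 was at 356 normalized counts, against 464 to 501 in the other 4 ATM-WT libraries, a gap of 0.745 of the group's whole range, beyond Dixon's critical value. Chance gives such a gap in about 1 group in 20, and 18 groups were examined (9 genes in 2 genotypes). The value still lay above all ATM-KO libraries, and without A4 Ikbke fell by 0.82 on the log2 scale.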

How the results depend on the processing

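Of 315 results under alternatives, 300 kept their side of the threshold (counts: within 1.5 times) and none reversed a call. Ratios were judged here by the unadjusted permutation p. A change of sign where neither fit passed was not counted as a reversal. No paired analysis was possible because the columns carry none of the sample numbers in the titles, so no replicate block could be fitted, and a count test was not run for want of whole reads. Cgas, Aim2, Ifi204 and Ifi205 stayed higher and Ikbke lower under every alternative run. Trex1 passed after quantile normalization (0.61), and its log2 fold change ran from 0.30 to 0.49 when 1 library was left out, passing without A1 or A14. With 1 library left out the ratio difference ran from 0.65 to 1.05 for Cgas to Sting1, from 1.00 to 1.73 for Aim2 to Cgas and from 0.34 to 0.60 for Ifi204 to Ifi203 (passing without A2). Without A2 and A4 the difference was 0.69 for Aim2 to Cgas, no longer passing, and 0.79 for Ifi204 to Ifi203, now passing before adjustment. Without these libraries 23 genes of the 8 lists fell against 15. The causes were not tested. A2, at about 8.82 M reads, was the shallowest library, which limits its low values.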
